A study of Mus musculus with 12 samples.

Results

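The genes described here encode the machinery that copies chromosomal DNA: 45 genes for loading and firing replication origins, for polymerising and joining the new strands, for making deoxynucleotides and for rebuilding chromatin behind the fork. They were chosen by gene name among the non-control probes of the array, which gave 45 of 34797 gene names and 60 of 55681 probes. RNA was measured in the aorta of C57BL/6J mice on 12 1-colour Agilent arrays, 3 in each of 4 groups. In the study, aortic dissection was provoked by a challenge with beta-aminopropionitrile (BAPN), which blocks the crosslinking of collagen and elastin, and angiotensin II (AngII), a pressor peptide, and rapamycin, an inhibitor of the growth-controlling kinase mTOR, was tested against the vehicle dimethylsulfoxide (DMSO). The DMSO group received vehicle and the rapamycin group received rapamycin at 2 mg/kg/day in vehicle, neither with the challenge. The BA+DMSO group received vehicle together with BAPN at 150 mg/kg/day and AngII at 1 µg/kg/min, and the BA+rapamycin group received the same challenge together with rapamycin at 2 mg/kg/day. The labels give day 3 for every group, although titles in the DMSO group start with Pre. No transgene or mutant allele is named for any group.

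Before S phase, the origin recognition complex (Orc genes), Cdc6 and Cdt1 load the ring of Mcm2 to Mcm7 onto DNA as an inactive helicase, a step called licensing that geminin (Gmnn) restrains. At firing, the kinase Cdc7 with its activator Dbf4, together with Mcm10, Cdc45 and the GINS complex, turns that ring into a moving helicase. Many of these genes are transcribed under E2F factors as cells leave quiescence, and most cells of an adult aorta, chiefly contractile smooth muscle, are quiescent.

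Each value is the log2 of a probe's background-subtracted intensity minus the log2 of its array's 75th percentile intensity, so a value of 0 lies at that percentile, and levels of different genes cannot be set against each other. Testing was limited to probes that some group detected throughout, meaning that on each of its 3 arrays a share of 0.5 or more of the probe's spots stood well above background, and a gene was read from its tested probe with the highest mean. This left 39 of the 45 genes with a tested probe, of which 34 were well above background on all 12 arrays and 1, Mcm10, passed only through a challenged group. The other 6 genes, Orc1, Cdc6, Cdc7, Dbf4, Cdc45 and Pola2, were not tested. A gene was called at a Benjamini-Hochberg adjusted p under 0.05 in limma, adjusted over all 27801 tested probes. The labels do not say whether the arrays of a group came from separate mice, so p values measure the spread between these samples.

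The arrays were not alike in brightness. The 75th percentile intensity lay between 247 and 376 on the DMSO and rapamycin arrays, between 85.4 and 282 on the BA+DMSO arrays and between 81.0 and 121 on the BA+rapamycin arrays. All DMSO arrays lay on slide 1, together with rapamycin replicate 1, and the other 8 arrays on slide 2. The BA+DMSO arrays differed most from each other, correlating across probes at only 0.912 to 0.961 against 0.974 or more within the other groups. Replicate 2 had the dimmest signal of this group and held its lowest value for 37 of the 39 replication genes. For the order of this array among the others, here and below, the share of all tested genes was not counted. Replicate 3 had the brightest signal. Its summed level of leukocyte markers was 400, within the 329 to 406 of DMSO, against 756 and 1119 in replicates 1 and 2. The median log2 difference of these markers from the DMSO mean gave another order. It was 2.48, 1.40 and 2.16 in replicates 1, 2 and 3, against -0.23 to 0.36 on the DMSO arrays. Without replicate 3, 39.4% of all tested genes were called for BA+DMSO against DMSO. The share was 28.4% without replicate 2 and 21.4% with all arrays. The 12 smooth muscle markers were well above background on every array.

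In vehicle-treated aortas, many replication genes were higher after the 3-day challenge, in a comparison where all DMSO arrays lay on slide 1 and all BA+DMSO arrays on slide 2. In BA+DMSO against DMSO, 22 of 39 tested genes were called higher, none lower and 17 were not called, beside 10.4% of all tested genes called higher and 11% called lower. With the slide as a fixed block, which leaves the comparison resting on the rapamycin arrays that span both slides, none of the 39 was called and the median difference was 0.93, beside 0.0599% of all tested genes called. Of the 34 genes well above background on all 12 arrays, 21 were called higher without the block. The median difference of the replication genes was 1.24 on the log2 scale, against -0.02 over all tested genes, and 33 of the 39 differences lay above 0, beside 48.6% of all tested genes. The BA+DMSO values lay wholly above the DMSO values for the same 22 genes, where 15.4% of all tested genes showed that separation. The median of the genes relative to the DMSO mean was 1.64, 0.31 and 1.42 in BA+DMSO replicates 1, 2 and 3, and lay between -0.08 and 0.02 on the DMSO arrays. Replicate 2 thus carried the smallest rise, and for 17 genes it lay at or below the highest DMSO array. In a bulk tissue sample, more cells of a type and more RNA per cell cannot be told apart.

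**Figure D1:**
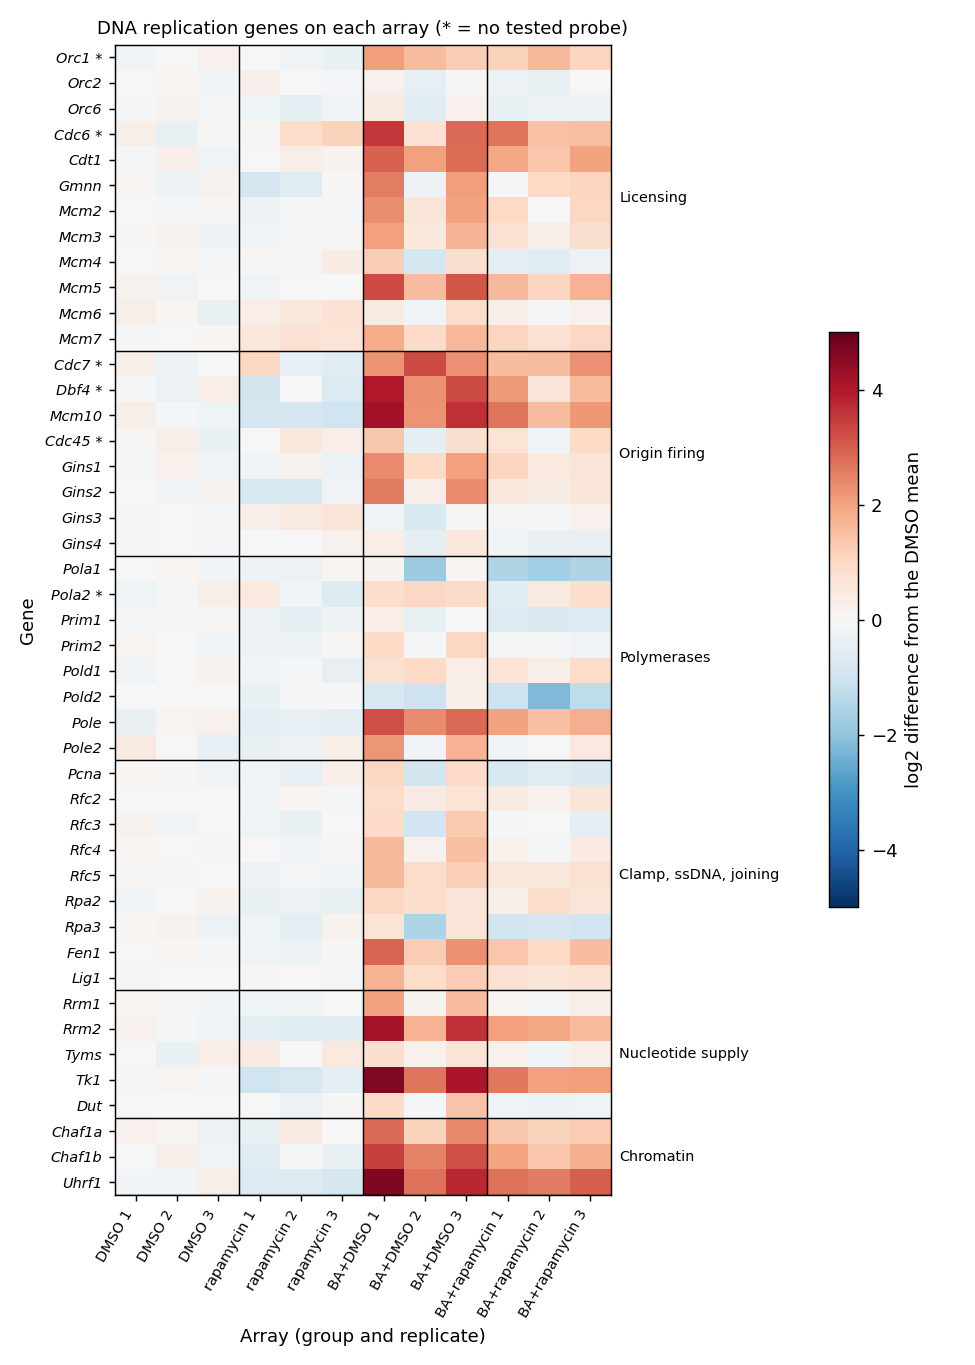
Heat map of the log2 difference of each of the 45 replication genes (rows, grouped by role) from its DMSO mean on each of the 12 arrays (columns); red is higher and blue lower, and an asterisk marks the 6 genes without a tested probe. The BA+DMSO columns are reddest in replicates 1 and 3, with Tk1, Uhrf1, Rrm2 and Mcm10 among the deepest rows, while replicate 2 is paler.

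Among the licensing genes, 5 of 10 tested were called higher: Cdt1, Mcm2, Mcm3, Mcm5 and Mcm7. Mcm5, a subunit of the helicase ring, had values of -0.74, -1.09 and -0.94 in DMSO, -1.08, -0.93 and -0.92 in rapamycin, 2.33, 0.63 and 2.17 in BA+DMSO, and 0.71, 0.14 and 0.82 in BA+rapamycin. The challenged arrays all lay above the unchallenged ones, and the highest BA+rapamycin arrays passed the lowest BA+DMSO array. BA+DMSO lay above DMSO by 2.63 ± 0.38 (log2, SE, n = 3 per group), or 6.2-fold, with an adjusted p of 0.00144 in limma. For this gene and those below, the DMSO and BA+DMSO arrays lay on separate slides. For Cdt1, which brings the ring to the origin, the values were -1.42, -1.08 and -1.54 in DMSO, -1.36, -1.03 and -1.17 in rapamycin, 1.61, 0.72 and 1.46 in BA+DMSO, and 0.57, 0.05 and 0.69 in BA+rapamycin. Here the 2 challenged groups did not overlap each other either, since every BA+rapamycin array lay below every BA+DMSO array. Its challenge difference was 2.61 ± 0.26, or 6.09-fold, with an adjusted p of 0.00028 in limma. Mcm2, Mcm3 and Mcm7, other subunits of the ring, rose by 1.64, 1.42 and 1.5, and Mcm4 and Mcm6 differed by 0.39 each and were not called. Mcm4 was called at 1.01 without BA+DMSO replicate 2 (limma, adjusted p = 0.00385), and Mcm6 at 0.99 with array brightness as a covariate (limma, adjusted p = 0.00558).

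Orc6, a small subunit of the origin recognition complex, had the smallest change of the licensing genes by absolute size. It read 2.25, 2.55 and 2.27 in DMSO, 2.13, 1.92 and 2.18 in rapamycin, 2.79, 1.77 and 2.58 in BA+DMSO, and 2.03, 2.10 and 2.10 in BA+rapamycin. The BA+DMSO arrays fell on both sides of the DMSO arrays. The challenge difference was 0.03 ± 0.24, with an adjusted p of 0.952 in limma. Orc2 likewise differed by only -0.06 ± 0.20, and geminin by 1.46 ± 0.61 with an adjusted p of 0.112 in limma. Neither was called. Geminin read -0.94, -3.74 and -1.39 in BA+DMSO. Over 16 alternatives (other processing or an array left out) its difference ranged from 0.88 to 2.40 and was called in 3. Of the 2 licensing genes without a tested probe, Cdc6, the loading ATPase, was well above background on none of the DMSO and 2 of the 3 BA+DMSO arrays. Since not every BA+DMSO array was well above background, no fold is given for Cdc6. Orc1, the largest subunit of the recognition complex, was not well above background on any array.

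Of the 5 tested origin firing genes, 3 were called higher: Mcm10, Gins1 and Gins2. Mcm10, which helps to open the helicase, was seen well above background on 1 of 3 DMSO, no rapamycin, all 3 BA+DMSO and 2 of 3 BA+rapamycin arrays. It read -3.22, -3.58 and -3.71 in DMSO, -4.34, -4.34 and -4.52 in rapamycin, 0.70, -1.27 and 0.14 in BA+DMSO, and -0.84, -1.94 and -1.35 in BA+rapamycin. All challenged arrays stood above all unchallenged ones. A gene that passed the filter only where it was high had to differ, so no fold or test is given for it here, although it counts among the 22 genes called.

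Gins1, a GINS subunit, read -1.93, -1.66 and -2.03 in DMSO, -2.03, -1.65 and -2.16 in rapamycin, 0.48, -0.88 and 0.18 in BA+DMSO, and -0.79, -1.37 and -1.28 in BA+rapamycin. It was higher on every challenged array than on any unchallenged one, by 1.80 ± 0.32 or 3.48-fold with vehicle (limma, adjusted p = 0.00417). Its partner Gins2 rose by 1.75 and was called in 7 of 17 alternatives. The other subunits of the complex were not called, and differences between subunits were not tested. Gins4 read 0.90, 0.83 and 0.77 in DMSO, 0.85, 0.86 and 1.04 in rapamycin, 1.15, 0.39 and 1.40 in BA+DMSO, and 0.69, 0.47 and 0.45 in BA+rapamycin. BA+DMSO replicate 2 lay below all DMSO arrays and its group mates above them, so the difference of 0.15 ± 0.23 was not called (limma, adjusted p = 0.687). It was called at 0.44 without that array (limma, adjusted p = 0.0422) and at 0.62 with array brightness as a covariate (limma, adjusted p = 0.0293). Gins3 differed by -0.30 ± 0.21 and was not called. The kinase pair was dim. Dbf4 was well above background on no DMSO array and 2 BA+DMSO arrays, and no fold is given for it. The probe used for Cdc7 was above background on 1 BA+DMSO array and the other Cdc7 probe on none. Cdc45, a component of the active helicase, read -3.86, -3.61 and -4.22 in DMSO and -2.54, -4.36 and -3.09 in BA+DMSO. It was well above background on no DMSO, 2 rapamycin, 2 BA+DMSO and no BA+rapamycin array. Since no DMSO array and not every BA+DMSO array was well above background, nothing is read from the order of these values.

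Of the 7 tested polymerase and primase genes, only Pole and Pold1 were called higher. Pole, the catalytic subunit of leading-strand polymerase epsilon, read -1.86, -1.36 and -1.28 in DMSO, -2.0, -1.91 and -2.0 in rapamycin, 1.74, 0.85 and 1.34 in BA+DMSO, and 0.52, -0.00 and 0.31 in BA+rapamycin. All 4 groups were apart, in the order rapamycin, DMSO, BA+rapamycin and BA+DMSO. Pole was higher in BA+DMSO than in DMSO by 2.81 ± 0.25, or 7.01-fold (limma, adjusted p = 0.000144). Pole2, its accessory subunit, read -2.38, -2.86 and -3.24 in DMSO, -3.20, -3.13 and -2.52 in rapamycin, -0.61, -2.95 and -1.08 in BA+DMSO, and -3.06, -2.86 and -2.36 in BA+rapamycin. BA+DMSO replicates 1 and 3 stood above every other array, replicate 2 fell among the unchallenged arrays, and the probe was well above background on only 1 BA+rapamycin array. The difference of 1.28 ± 0.51 was not called (limma, adjusted p = 0.0977). It ranged from 0.81 to 2.20 over 16 alternatives and was called in 3 of them.

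Prim1, the subunit of primase that makes the RNA primer, showed almost no difference. Its values were 1.94, 2.11 and 2.11 in DMSO, 1.78, 1.57 and 1.81 in rapamycin, 2.39, 1.68 and 2.06 in BA+DMSO, and 1.41, 1.33 and 1.40 in BA+rapamycin. The BA+DMSO arrays straddled the DMSO arrays, and the BA+rapamycin arrays lay below those of every other group. The challenge difference was -0.01 ± 0.19 (limma, adjusted p = 0.971). The catalytic subunit of polymerase alpha, Pola1, and the second subunit of polymerase delta, Pold2, differed by -0.51 ± 0.42 and -0.52 ± 0.35. Neither difference was called, and they turned to 0.36 and 0.24 with array brightness as a covariate. Over 17 alternatives they ranged from -0.87 to 0.36 and from -0.90 to 0.24, and Pold2 was called in 1 of them. Pold1, the catalytic subunit of polymerase delta, rose by 0.70 ± 0.22 (limma, adjusted p = 0.0445). That gene was called in only 5 of 17 alternatives. Prim2 differed by 0.64 and was not called, but 3 of 17 alternatives called it, over a range of 0.45 to 1.17. Pola2, without a tested probe, was above background on no DMSO and only 1 BA+DMSO array.

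In the group of the sliding clamp, its loader, the single-strand binding protein RPA and the enzymes that finish the lagging strand, 6 of 9 genes were called higher: Fen1, Lig1, Rfc2, Rfc4, Rfc5 and Rpa2. Fen1, the nuclease that trims flaps from Okazaki fragments, read -0.03, 0.04 and -0.17 in DMSO, -0.20, -0.30 and 0.00 in rapamycin, 2.84, 1.21 and 2.25 in BA+DMSO, and 1.35, 0.95 and 1.48 in BA+rapamycin. No challenged array reached down to an unchallenged one. The difference was 2.15 ± 0.34, or 4.45-fold (limma, adjusted p = 0.00212). Lig1, which seals the trimmed fragments, read 1.97, 2.03 and 2.03 in DMSO, 2.05, 1.97 and 1.96 in rapamycin, 3.74, 2.93 and 3.27 in BA+DMSO, and 2.79, 2.63 and 2.71 in BA+rapamycin. Unchallenged arrays were nearly level for Lig1, and each BA+rapamycin array lay between them and the BA+DMSO arrays. It rose by 1.30 ± 0.19, or 2.46-fold (limma, adjusted p = 0.00172).

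Rpa3, the small RPA subunit, changed least in this group. It read 2.00, 2.07 and 1.62 in DMSO, 1.67, 1.43 and 2.06 in rapamycin, 2.58, 0.35 and 2.54 in BA+DMSO, and 0.96, 1.07 and 0.90 in BA+rapamycin. BA+DMSO replicates 1 and 3 were the highest of all 12 arrays and replicate 2 the lowest. The difference of -0.07 ± 0.48 (limma, adjusted p = 0.937) turned to 0.67 with an adjusted p of 0.0346 without BA+DMSO replicate 2. Pcna, the clamp itself and a widely used marker of proliferation, behaved alike, at 3.19, 3.13 and 2.91 in DMSO and 4.11, 2.15 and 4.02 in BA+DMSO. Its difference of 0.35 ± 0.43 was not called (limma, adjusted p = 0.594), and without BA+DMSO replicate 2 it was 0.99 and called (limma, adjusted p = 0.00573). The clamp loader genes Rfc2, Rfc4 and Rfc5 rose by 0.66, 1.11 and 1.26, and Rpa2 rose by 0.85. Rfc2 and Rfc4 were each called in 8 of 17 alternatives. Rfc3 differed by 0.43 without being called. It read -1.35, -3.27 and -0.97 in BA+DMSO and was called in 3 of 16 alternatives, over a range of -0.02 to 1.37.

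Nucleotide supply included the largest challenge difference among the 39 tested genes. Tk1, the S-phase thymidine kinase that salvages thymidine, read -1.58, -1.38 and -1.63 in DMSO, -2.51, -2.32 and -1.98 in rapamycin, 3.11, 1.14 and 2.56 in BA+DMSO, and 1.12, 0.52 and 0.54 in BA+rapamycin. The 4 groups did not overlap, although BA+DMSO replicate 2 exceeded BA+rapamycin replicate 1 by little. Tk1 was higher in BA+DMSO than in DMSO by 3.80 ± 0.41, or 13.9-fold (limma, adjusted p = 0.00037), with these groups on separate slides. Rrm2, the S-phase subunit of ribonucleotide reductase, read -0.57, -0.81 and -0.93 in DMSO, -1.24, -1.37 and -1.35 in rapamycin, 3.37, 0.95 and 2.84 in BA+DMSO, and 1.30, 1.15 and 0.83 in BA+rapamycin. The challenged groups overlapped each other but neither overlapped an unchallenged group. It rose by 3.16 ± 0.47, or 8.93-fold (limma, adjusted p = 0.00175). Its partner Rrm1 rose by 1.24 ± 0.36 and was called in 7 of 17 alternatives. Tyms, thymidylate synthase, read -3.37, -3.75 and -3.08 in DMSO, -3.00, -3.39 and -2.92 in rapamycin, -2.61, -3.17 and -2.73 in BA+DMSO, and -3.18, -3.53 and -3.07 in BA+rapamycin. These values overlapped and lay close to background, with no BA+rapamycin array well above it, and the difference of 0.56 ± 0.24 was not called (limma, adjusted p = 0.115). Dut, which removes dUTP, differed by 0.78 and was not called, but 3 of 17 alternatives called it, over a range of 0.46 to 1.43.

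The 3 chromatin genes were all called higher. Uhrf1, which reads hemimethylated DNA and recruits the maintenance methyltransferase, read -1.47, -1.46 and -1.05 in DMSO, -1.98, -1.99 and -2.15 in rapamycin, 3.35, 1.38 and 2.44 in BA+DMSO, and 1.38, 1.26 and 1.65 in BA+rapamycin. Challenged and unchallenged arrays were far apart whether or not rapamycin was given. The difference with vehicle was 3.72 ± 0.38, or 13.2-fold (limma, adjusted p = 0.000315). Chaf1b, a subunit of the histone chaperone CAF-1, read -0.59, -0.32 and -0.76 in DMSO, -1.07, -0.65 and -0.94 in rapamycin, 2.84, 1.94 and 2.65 in BA+DMSO, and 1.39, 0.81 and 1.20 in BA+rapamycin. Each BA+rapamycin array lay between the unchallenged and the BA+DMSO arrays. The rise was 3.03 ± 0.26, or 8.2-fold (limma, adjusted p = 0.000125). Chaf1a, the large CAF-1 subunit, read -2.18, -2.30 and -2.71 in DMSO, -2.73, -1.98 and -2.40 in rapamycin, 0.44, -1.29 and 0.02 in BA+DMSO, and -1.05, -1.27 and -1.14 in BA+rapamycin. BA+DMSO replicate 2 lay below all 3 BA+rapamycin arrays. Its rise was 2.12 ± 0.38, or 4.35-fold (limma, adjusted p = 0.00407).

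**Figure D2:**
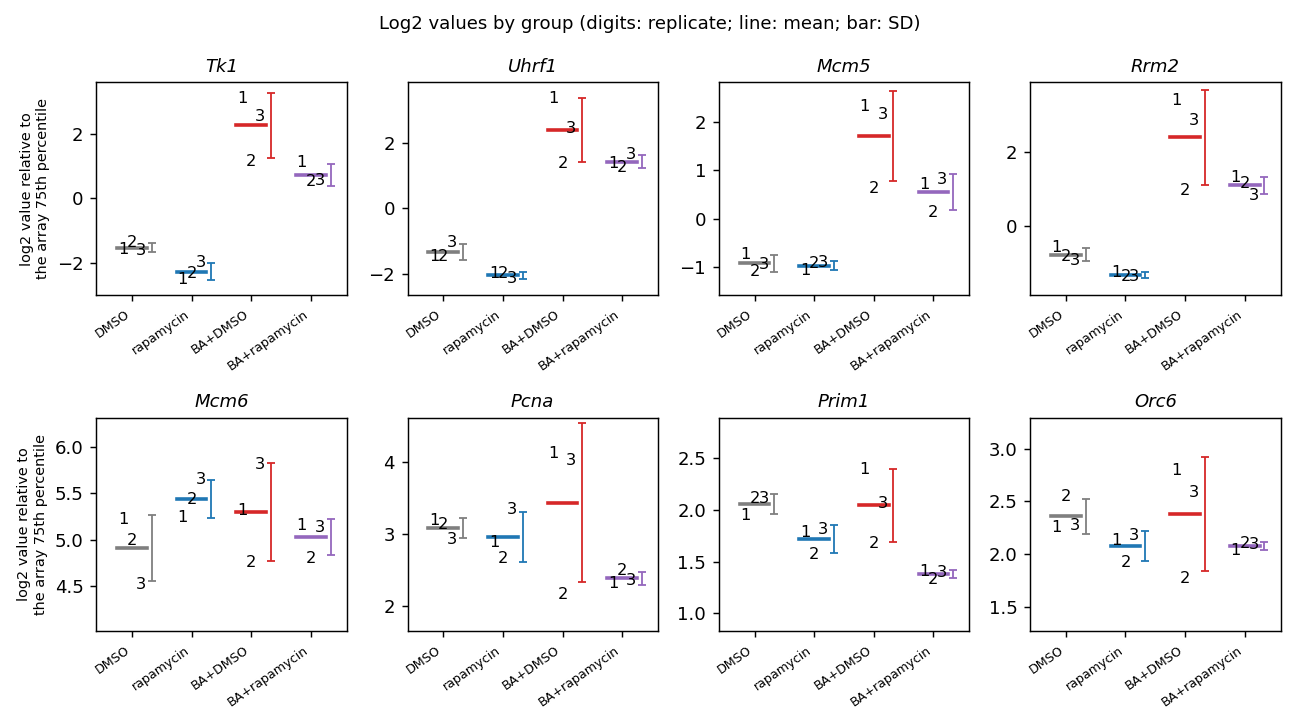
Log2 values relative to the array's 75th percentile for 8 replication genes in the 4 groups (digits are the replicate numbers, lines the group means and bars ± SD, n = 3). In the upper row, Tk1, Uhrf1, Mcm5 and Rrm2 are higher on every challenged array than on any unchallenged one, while in the lower row the challenged arrays of Mcm6, Pcna, Prim1 and Orc6 overlap the others or lie below them.

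The number of calls also moved with the arrays used. It was 31 without BA+DMSO replicate 2, beside 14.8% of all tested genes called higher, 15 without BA+DMSO replicate 1, beside 6.4%, and 14 in a fit of the DMSO and BA+DMSO arrays alone, beside 3%. Of the 15 other probes for these genes, 6 were tested, 3 were called higher and none lower for the challenge. The leukocyte markers moved with the same contrast. Of 19 tested, 13 were called higher and none lower, their summed linear level was 329 to 406 in DMSO and 400 to 1119 in BA+DMSO, and all 19 were well above background on all 3 DMSO arrays. Of 9 fibroblast markers, 3 were called higher and none lower, and their summed level was 1271 to 1617 in DMSO and 1709 to 2896 in BA+DMSO. Of 12 smooth muscle markers, 3 were called lower, and of 8 endothelial markers 2 were called higher. In this fit 10.4% of all tested genes were called higher and 11% lower. Of 6 adipocyte markers 1 was called higher, with a median difference of 1.61, and of 8 striated muscle markers 1 was called lower, with a median of -1.64. The part of these cells in the rise of the replication genes was not tested.

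The promoters of the replication genes are shown because called and uncalled genes share an E2F-like pattern, TTTNNCGC, where N is any base. This pattern is a loose one and is called the E2F letters below. RefSeq promoter windows (GRCm38.p6, 250 bases before to 50 bases after each start) were matched by symbol for 37 of the 45 genes. The letters TTTNNCGC, searched on both strands and with overlapping matches allowed, occurred in the windows of 15 of the 37 genes, or 40.5%, against 5.93% of 27025 genes with a window. By the challenge call, they were found in 7 of 18 genes called higher, 6 of 13 tested but not called and 2 of 6 untested. CCAAT, the letters of the CCAAT box, occurred in 22 of the 37 genes, or 59.5%, against 41.1% of all genes. The 150 bases before the start follow 5′ to 3′ on the gene's strand, with the E2F letters in capitals, for Mcm5 (chr8:75109359-75109508, plus strand) and Uhrf1 (chr17:56303187-56303336, plus strand), both called higher, and for Mcm6 (chr1:128359706-128359855, minus strand), Gins3 (chr8:95633409-95633558, plus strand) and Pola1 (chrX:93632156-93632305, minus strand), none of them called.
Mcm5: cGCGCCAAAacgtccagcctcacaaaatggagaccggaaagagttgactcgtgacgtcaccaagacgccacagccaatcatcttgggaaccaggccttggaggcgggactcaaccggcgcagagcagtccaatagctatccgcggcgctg
Uhrf1: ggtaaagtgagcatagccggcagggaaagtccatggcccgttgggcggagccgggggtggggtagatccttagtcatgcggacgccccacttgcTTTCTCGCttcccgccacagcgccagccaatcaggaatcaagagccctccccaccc
Mcm6: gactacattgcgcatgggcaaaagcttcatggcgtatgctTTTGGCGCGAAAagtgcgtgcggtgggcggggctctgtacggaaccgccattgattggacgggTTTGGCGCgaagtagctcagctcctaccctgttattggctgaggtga
Gins3: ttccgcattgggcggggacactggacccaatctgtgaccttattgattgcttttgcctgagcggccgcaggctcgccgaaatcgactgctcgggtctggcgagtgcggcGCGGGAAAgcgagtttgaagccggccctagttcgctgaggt
Pola1: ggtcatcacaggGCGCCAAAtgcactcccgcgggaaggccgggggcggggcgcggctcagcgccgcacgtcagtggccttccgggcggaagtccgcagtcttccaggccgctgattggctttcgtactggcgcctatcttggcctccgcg
The Mcm6 stretch holds 3 matches, 2 of which overlap on opposite strands. The full Mcm5 window holds 2 matches that also overlap on opposite strands, and the stretch shown cuts the first of them. Uhrf1 has a second RefSeq start, not shown, with 1 match in its own window. A match is a description of letters and not of binding, and a window without one says only that these letters are not in it.

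When rapamycin was given with the challenge, the fitted values of nearly all replication genes were lower, but no single gene passed the test. In BA+rapamycin against BA+DMSO, 38 of 39 differences lay below 0, with a median of -0.84 against -0.03 over all tested genes, and 51.8% of all tested genes lay below 0. None of the 39 was called in limma, where 0.24% of all tested genes were called lower. Before adjustment, 26 of the 39 had a p below 0.05, beside 20.5% of all tested genes. The smallest adjusted p was 0.0626, for Chaf1b, which differed by -1.34 ± 0.26. Tk1 had the largest difference, -1.54 ± 0.41 with an adjusted p of 0.111, and Gins3 alone was above 0, at 0.37 ± 0.21 with an adjusted p of 0.314.

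Of the 39 tested replication genes, 8 had every BA+rapamycin array below every BA+DMSO array, beside 8.08% of all tested genes. They were Cdt1, Prim1, Pole, Rfc5, Lig1, Tk1, Dut and Chaf1b, from 5 of the 6 roles. Cdt1 differed by -0.83 ± 0.26, Pole by -1.04 ± 0.25 with an adjusted p of 0.0918, Lig1 by -0.60 ± 0.19 and Prim1 by -0.67 ± 0.19. No gene had the groups apart in the other direction. For 13 genes, BA+DMSO replicate 2 lay below all 3 BA+rapamycin arrays, among them Pcna, at 2.15 against 2.31, 2.49 and 2.35. The BA+DMSO arrays were the most spread: the median SD of the genes was 0.77 in BA+DMSO, against 0.15 in DMSO, 0.16 in rapamycin and 0.21 in BA+rapamycin.

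Leaving out BA+DMSO replicate 2 turned this comparison. Then 32 of the 39 genes were called lower and none higher, beside 24% of all tested genes called lower, and the median difference was -1.31. Without replicate 1 or 3 of the same group none was called, and the medians were -0.51 and -0.66. The 32 genes, of 39 tested, included 19 of the 22 called higher for the challenge. The exceptions were Pold1, Rfc2 and Rpa2, which encode polymerase delta's catalytic subunit, a clamp loader subunit and a single-strand binding subunit. Both comparisons use the BA+DMSO arrays, with opposite sign, so nothing is read from this overlap. The 75th percentile intensity of the arrays compared was 85.4 for BA+DMSO replicate 2, 149 and 282 for its group mates, and 81.0 to 121 for BA+rapamycin. The part of this brightness in the differences was not tested beyond the fit with brightness as a covariate, in which the median was -0.51 and Gins3 was called higher. Dbf4, untested, was well above background on 2 BA+DMSO arrays and no BA+rapamycin array. The 2 tested probes of Prim2 disagreed in this comparison, at -0.77 for the one used and 0.81 for the other, as did those of Rfc5, at -0.63 and 0.33. The leukocyte markers' summed level was 916 to 1194 in BA+rapamycin, against 400 to 1119 in BA+DMSO. Gene by gene, however, 12 of the 19 differences lay below 0, with a median of -0.27. None of them was called in this comparison.

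**Figure D3:**
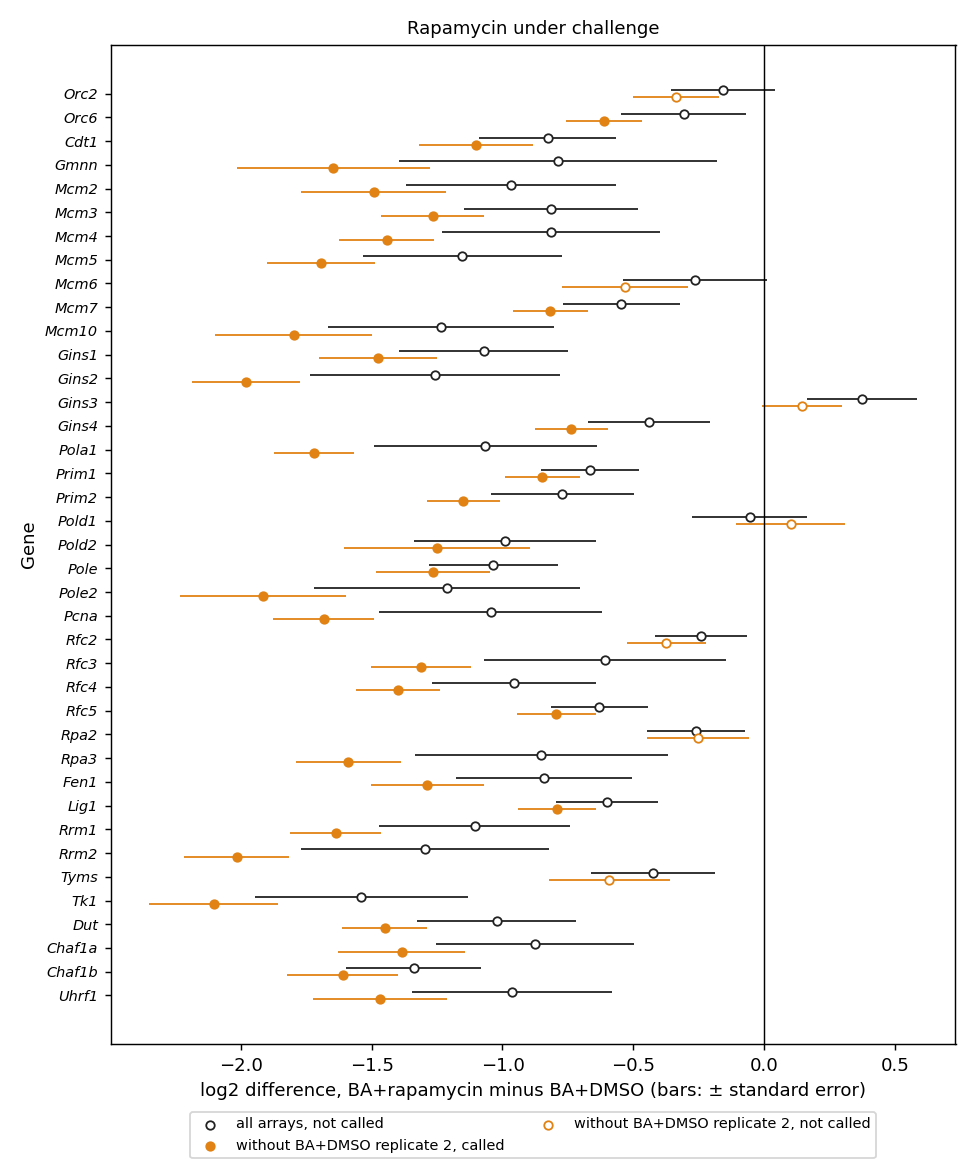
Log2 difference of BA+rapamycin minus BA+DMSO (± SE) for the 39 tested replication genes with all arrays (black) and without BA+DMSO replicate 2 (orange); filled points are called. With all arrays no point is filled and Gins3 alone lies above 0, and without that array 32 points are filled, all below 0.

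Some replication genes were also higher with the challenge in rapamycin-treated aortas. BA+rapamycin against rapamycin called 14 genes higher and 2 lower, beside 19.8% and 22.9% of all tested genes, with a median of 0.46 against -0.07 over all tested genes. All 14 were among the 22 genes called higher with vehicle: Cdt1, Mcm5, Mcm10, Pole, Pold1, Rfc5, Rpa2, Fen1, Lig1, Rrm2, Tk1, Chaf1a, Chaf1b and Uhrf1. Uhrf1 rose by 3.47 ± 0.38, or 11.1-fold, with an adjusted p of 0.000232 in limma. Tk1 rose by 3.00 ± 0.41, or 8.0-fold, with an adjusted p of 0.000681. Mcm10, which passed the filter only through a challenged group, was well above background on 2 BA+rapamycin arrays and no rapamycin array, and is given no fold here either. For Uhrf1 and Tk1, every challenged array lay above every unchallenged one.

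Cdt1 rose by 1.62 ± 0.26 under rapamycin, Mcm5 by 1.53 ± 0.38, Pole by 2.25 ± 0.25, Fen1 by 1.43 ± 0.34 and Chaf1b by 2.02 ± 0.26. The helicase subunits other than Mcm5 were not called under rapamycin: Mcm2, Mcm3 and Mcm7 differed by 0.82, 0.67 and 0.29, and Mcm4 and Mcm6 by -0.53 and -0.41. The 2 genes called lower were Pola1 and Pold2. Pola1 read 0.17, 0.12 and 0.50 in rapamycin and -1.11, -1.29 and -1.08 in BA+rapamycin, a fall of -1.42 ± 0.42 (limma, adjusted p = 0.022). Pold2 read -0.02, 0.24 and 0.25 in rapamycin and -0.73, -1.91 and -0.98 in BA+rapamycin, a fall of -1.36 ± 0.35 (limma, adjusted p = 0.0116). Neither gene's groups overlapped. With array brightness as a covariate neither was called, at 0.14 for Pola1 and -0.0033 for Pold2, Mcm4 and Mcm6 turned to 0.83 and 0.67 without being called, and the median over the 39 genes was 1.02. In all, 20 genes had every BA+rapamycin array above every rapamycin array and 9 had them all below, beside 31.2% and 36.6% of all tested genes.

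The slide could be held fixed in this comparison. Within slide 2, with rapamycin replicates 2 and 3 against the BA+rapamycin arrays, 7 genes were called, all higher, beside 6.32% of all tested genes called higher there. One of them was Mcm10, which had to differ, and the others were Cdt1, Pole, Rrm2, Tk1, Chaf1b and Uhrf1. With the slide as a block across all arrays, 13 genes were called higher and 1 lower, beside 13.8% and 15.4% of all tested genes. Without the slide in the fit, where 19.8% of all tested genes were called higher, the same leukocyte list had 11 of 19 genes called higher and none lower. In that fit the fibroblast list had 4 of 9 called higher and none lower, with a summed level of 1408 to 1623 in rapamycin and 2696 to 3071 in BA+rapamycin. Of the 12 smooth muscle markers, 5 were called lower and 1 higher, beside 22.9% of all tested genes called lower, and of 8 endothelial markers 2 were called higher and 2 lower. Of 6 adipocyte markers 1 was called lower, with a median of 1.11, and of 8 striated muscle markers 1 was called higher and 1 lower, with a median of 1.22. The part of these cells was again not tested.

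**Figure D4:**
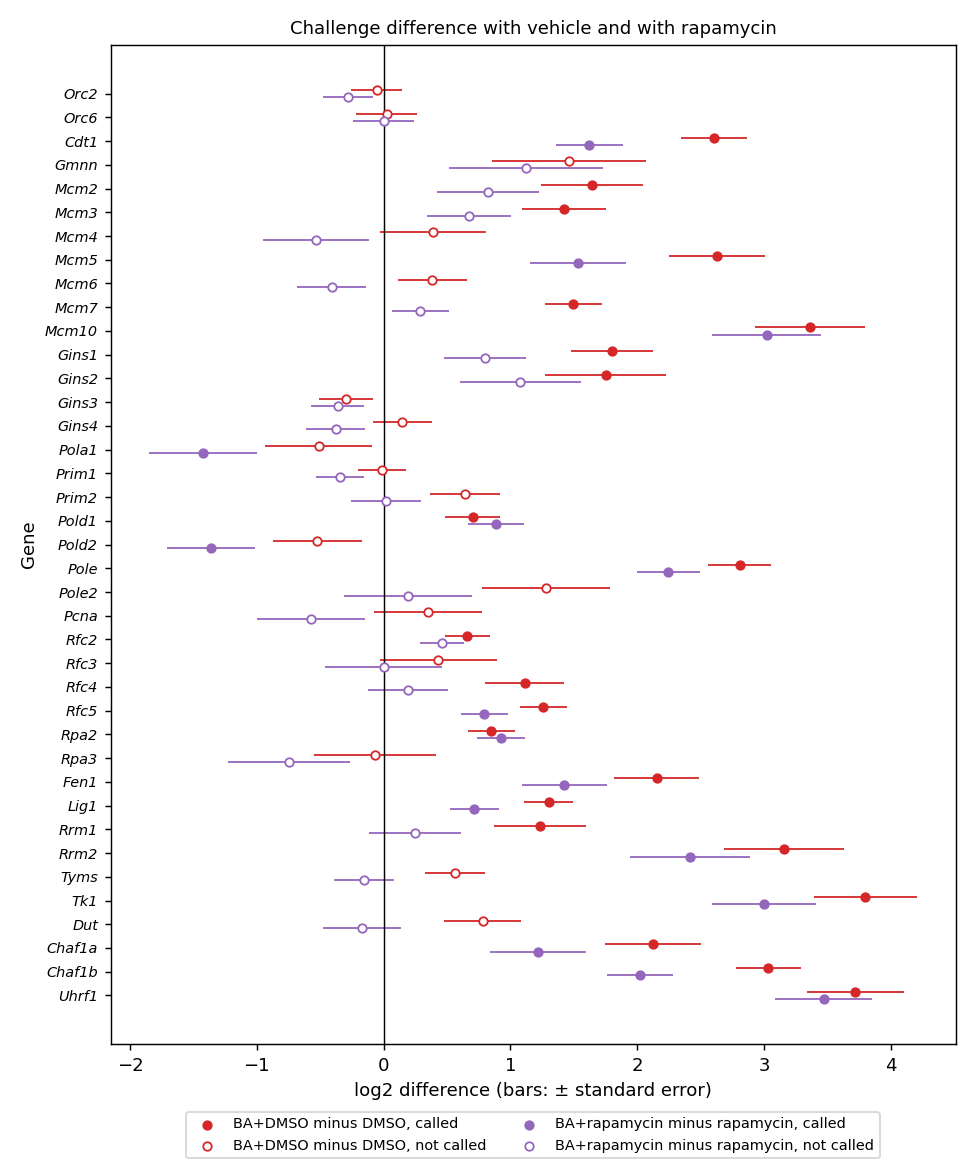
Challenge difference (log2, ± SE) of the 39 tested replication genes with vehicle (BA+DMSO minus DMSO, red) and with rapamycin (BA+rapamycin minus rapamycin, purple); filled points are called. Red points are filled for 22 genes, purple points for 14 of these, and Pola1 and Pold2 are the purple filled points below 0.

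Whether the challenge difference itself depended on rapamycin was tested by the interaction. None of the 39 genes was called in limma, and none of all tested genes was (0%), while 4 of the 39, beside 6.01% of all tested genes, had an unadjusted p under 0.05 and the smallest adjusted p was 0.525. The fitted interaction lay below 0 for 37 of 39 genes, beside 53.2% of all tested genes, with a median of -0.73. Both challenge comparisons use separate control groups, but the interaction draws on all 12 arrays and its calls again turned on 1 of them: without BA+DMSO replicate 2, 24 genes were called with an interaction below 0, beside 7.41% of all tested genes, and the median was -1.19. With array brightness as a covariate the median was -0.25 and none was called.

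Rapamycin without the challenge called none of the 39 genes, higher or lower, in limma, where 0.00499% of all tested genes were called. The median difference was -0.13 against -0.01 over all tested genes, 1 of the 39 had an unadjusted p under 0.05 beside 4.43% of all tested genes, and the smallest adjusted p was 0.953, for Mcm7. Mcm7 read 1.75, 1.78 and 1.89 in DMSO and 2.38, 2.53 and 2.49 in rapamycin, a difference of 0.66 ± 0.22. Mcm6, Mcm7 and Gins3 had every rapamycin array above every DMSO array, and 10 genes had them all below, beside 10.6% and 11.8% of all tested genes. The 10 included Tk1 at -0.74 ± 0.41 and Uhrf1 at -0.71 ± 0.38, neither called. Mcm10, with 1 DMSO array and no rapamycin array above background, was not called. This comparison shares its DMSO arrays with the challenge comparison and its rapamycin arrays with the challenge under rapamycin.

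Of 48 further genes listed for the pathway, such as accessory polymerase subunits, ribonuclease H2 subunits, fork protection factors and topoisomerases, 41 were tested. The challenge with vehicle called 13 of them higher and 2 lower, beside the same 10.4% and 11% of all tested genes, with a median of 0.14. The 13 include Top2a, which untangles daughter chromosomes, and Dtl, which directs Cdt1 for degradation. Both were well above background on no DMSO or rapamycin array and passed the filter only through a challenged group, so they had to differ and are given no fold. Asf1b, a histone chaperone, was called higher with a difference of 4.11. The 2 genes called lower were Asf1a, the paralogue of Asf1b, with a difference of -1.51, and Rrm2b, the damage-responsive reductase subunit, which was well above background on all 3 DMSO arrays but only 1 BA+DMSO array. Under rapamycin the challenge called 10 of the 41 higher, Top2a and Dtl again among them, and 9 lower, beside 19.8% and 22.9%, with a median of -0.10. Neither rapamycin comparison called any of them, and their medians were -0.43 with the challenge and -0.13 without it.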

How the data were processed

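RNA of 12 mouse aorta samples was labelled with Cy3 and hybridised to 1-colour Agilent arrays on 2 slides. The file headers name Feature Extraction 10.7.1.1 for the image analysis (the submitters' processing notes give 9.5.1.1). The processed signal is, per the file headers, linear intensity after background subtraction and detrending, with no normalization across arrays. Per the file headers, probes are placed on mm9, with no coordinates for the probes used here. Deposited flags of 0 or 1 marked spots well above background, saturated or outlying. The deposited matrix holds quantile-normalized intensity; how the authors normalized it is not given in the sources used here, and it served as an alternative.

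Samples were grouped by their treatment labels, and replicates were numbered in the order of deposition. Intensity was put on the log2 scale, 3671 control spots of 62976 and outlier spots were left out, replicate spots were averaged, 6 of the 55681 probes lacking a value were dropped, and each array was scaled by its 75th percentile. This left 27801 tested probes with 20026 gene names. limma 3.58.1 (R 4.3.3, with data.table in version 1.17.8) fitted 4 group means to all 12 arrays, with two-sided moderated tests and Benjamini-Hochberg adjustment, and was tested on simulated data. A second count took the study's threshold, an unadjusted p below 0.01 with a fold above 4 or below 0.25.

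The genes and lists were chosen with earlier results of these data known. Values per array are given for the 2 genes of each role with the largest and the 1 with the smallest absolute challenge difference, and for any gene called in another comparison of rapamycin. Pcna, Pola1, Pold2, Cdc45 and Mcm7 were added after their values were seen, and the BA+DMSO values of Gmnn and Rfc3 are also given outside this rule. Alternatives were other scalings, background corrections and filters, slide, brightness and replicate blocks, and leaving out each array. All 45 genes were found by symbol among the RefSeq genes. Figures used Python 3.11.15, pandas 2.3.3 and matplotlib 3.10.9.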

Additional observations from a re-analysis of the deposited data

How the results depend on the processing

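The 12 arrays limit the precision, and where no cause is given the cause was not tested. Shares in parentheses are of all tested genes called in either direction. Where both are ranges, their ends need not come from the same array left out. For the challenge, the 31 calls went with 28.4% (without BA+DMSO replicate 2), and 39.4% went with 21 calls (without BA+DMSO replicate 3). For the challenge, the 22 calls (21.4%) became 14 in a fit of only the 2 groups compared (4.78%), 0 with the slide as a fixed block (0.0599%), 12 with the replicate block (2.91%) and 10 by the study's rule (2.83%), and 15 to 31 with each array left out (7.87% to 39.4%). The median, 1.24, ranged from 0.85 to 1.49 with each array left out. For the challenge under rapamycin, the 16 calls (42.7%) became 26 with only the 2 groups compared (57.8%; 20 higher, 6 lower), 7 within slide 2 (12%), 7 with the replicate block (10.3%) and 6 by the study's rule (5.43%), and 13 to 16 with each array left out (24.2% to 35.5%). Its median of 0.46 became 0.64 with the percentile taken over probes detected on all arrays, 0.67 with no filter on dim probes and 1.02 with array brightness as a covariate, and ranged from 0.37 to 0.56 with each array left out. For rapamycin under challenge, 1 gene was called lower with quantile normalization (0.829%), with the percentile over detected probes (1.76%) and in the deposited matrix (0.824%), 1 was called higher with the brightness covariate (1.29%), and 0 to 32 were called with each array left out (0.12% to 41%; medians -1.31 to -0.51). The interaction then called 0 to 24 genes (0% to 11.2%), with medians of -1.19 to -0.44, and its median was -0.25 with the brightness covariate. For rapamycin alone, the median was -0.22 with the slide as a block and within slide 1 and -0.23 with the brightness covariate, and -0.19 to -0.08 with each array left out. It called 0 genes with each array left out.

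Some differences changed sign, among them those that follow. With the brightness covariate, the challenge difference was 0.36 for Pola1, 0.24 for Pold2 and 0.13 for Gins3, and under rapamycin 0.89 for Pcna, 0.83 for Mcm4, 0.67 for Mcm6, 0.40 for Gins3 and 0.14 for Pola1. Without BA+DMSO replicate 2, Pola1 was 0.14 for the challenge. For the challenge, Prim1 was 0.075 with quantile normalization, 0.074 in the deposited matrix, 0.054 with the percentile over detected probes, 0.081 with the slide block, 0.15 with the brightness covariate and 0.013 with the replicate block. Orc6 was -0.13 with normexp background correction, and Rpa3 was 0.90 with the brightness covariate. Under rapamycin, Pole2 was -0.30 with quantile normalization and in the deposited matrix, Orc6 was -0.32 with normexp, Tyms was 0.028 with the percentile over detected probes, 0.67 with normexp (limma, adjusted p = 0.00619) and 0.25 with the brightness covariate, and Gins4 was 0.47 and Rpa3 0.98 with that covariate. With single arrays left out, the challenge difference ranged from -0.18 to 0.33 for Orc6, -0.19 to 0.17 for Prim1, -0.45 to 0.67 for Rpa3 and -0.063 to 0.44 for Gins4, and under rapamycin from -0.080 to 0.051 for Orc6 and -0.0077 to 0.41 for Pole2. Replicate numbers come from the order of deposition and pair no samples. The correlation of deviations was 0.17 for DMSO and rapamycin replicates 2 and -0.35 for replicates 3. Array quality weights did not converge and were not used. Titles carry a date-like number. Within arrays sharing it, an alternative chosen after seeing the data and with no test, the median was -0.06 for rapamycin alone (2 arrays against 2) and -1.27 for rapamycin under challenge (1 array against 1).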
